A study of Mus musculus with 15 samples.

Results

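The genes described here supply cells with amino acids and are switched on by the integrated stress response: 34 genes for amino acid synthesis, amino acid uptake, tRNA charging and the stress transcription factors themselves. Each gene was read from a probe set that names it alone, and where a gene had several such probe sets, from the one with the highest mean over all arrays. Of the 34 genes, 32 had such a probe set, out of 22180 genes that did on this array; Pycr1 and Aars were left out. All 32 passed the filter on dim genes, Slc7a3 and Cth only through the GFE arrays, so that a difference of GFE from the other groups in those 2 genes is partly built into their being tested.

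RNA of mouse myeloid cells was measured on 15 single-colour Affymetrix arrays in 5 groups of 3, all of the strain C57Bl/6. GFW and RB are both spleen cells of mice given G-CSF, a cytokine that drives myeloid cells out of the marrow, sorted as lineage-negative (no CD4, CD8, Ly6G, B220 or Ter119), CD11b+ and CD34+; their labels are the same but for the code in the title. GFK cells were sorted in the same way from G-CSF treated mice labelled iNOS knockout. GFE cells are sorted cells of the GFW and RB kind after 3 days in culture with Flt3 ligand and SCF, growth factors for blood progenitors. MDSC are myeloid-derived suppressor cells, Ly6C+CD11b+ cells raised out of marrow by GM-CSF, IL-13 and also G-CSF. So GFW, RB and GFK came directly from mice, and GFE and MDSC came out of culture. The question in the design text is how the mobilised cells differ from the cultured suppressor cells and from their own state after culture. The labels do not say whether the 3 arrays of a group came from separate mice or cultures. Each p-value rests on the spread between samples within groups, pooled over all 15 arrays, and that spread may be technical. In bulk RNA like this, fewer cells of a type and less RNA per cell cannot be told apart. All levels below are log2 values made with RMA, and a gene is called higher or lower where limma gave an adjusted p under 0.05 (Benjamini-Hochberg over the 14822 genes tested), so that 1 log2 unit is a 2-fold difference.

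The integrated stress response starts when a kinase that senses amino acid shortage, unfolded protein, haem lack or double-stranded RNA phosphorylates the translation factor eIF2alpha. General translation then slows while the mRNA of Atf4 is translated better, and the ATF4 protein, paired with C/EBP proteins, binds composite elements in genes for amino acid synthesis, transport and tRNA charging. Growing cells also use this programme without stress, since mTORC1 signalling raises ATF4. Myeloid cells draw on the same genes for cystine, serine and arginine supply. Arrays read mRNA, so the phosphorylation and the translation step are not seen in these data.

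The C/EBP-ATF composite element is the sequence through which ATF4 acts on many of these genes, so the members' promoters were searched for it as TGATGNAA on both strands, in RefSeq promoter sequences of GRCm38.p6 that run from 250 bases before to 50 bases after the start of transcription. Promoter entries were matched for 25 of the 32 members. The other members were Slc7a5, Eif4ebp1, Nars, Slc7a3, Wars, Cth and Slc1a5. A match was present in 9 of the 25 (36.0%), against 4.51% of 27025 genes in the same table. The members were listed as genes of this response, so a share above that of all genes is partly built into the list. In 7 of the 9 it lay wholly before the start of its entry. All 7 carry the letters that the named factor is known to read, and all but Vldlr are shown. The capitals mark the match, and each stretch is written 5′ to 3′ on the strand of its gene, with the RefSeq start of transcription of that entry downstream. In Slc7a11 and Vldlr that start is not the outermost: both stretches lie inside the span that RefSeq gives the gene, so they precede a start further in. The stretch of Asns, the asparagine synthetase gene, is chr6:7693210-7693258 on the minus strand, that of Atf3 is chr1:191183410-191183469 (minus), and that of Chac1 is chr2:119351023-119351082 (plus). Those of Gars (chr6:55037945-55038000, plus), Nupr1 (chr7:126625547-126625606, minus) and Slc7a11 (chr3:50443635-50443697, minus) follow, the last with 2 matches in opposite directions.
Asns: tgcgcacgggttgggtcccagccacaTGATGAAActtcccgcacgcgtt
Atf3: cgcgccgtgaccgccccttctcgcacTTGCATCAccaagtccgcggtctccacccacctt
Chac1: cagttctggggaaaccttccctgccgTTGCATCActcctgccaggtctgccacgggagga
Gars: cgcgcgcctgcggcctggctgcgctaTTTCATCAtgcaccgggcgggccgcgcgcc
Nupr1: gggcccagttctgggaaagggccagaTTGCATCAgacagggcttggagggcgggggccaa
Slc7a11: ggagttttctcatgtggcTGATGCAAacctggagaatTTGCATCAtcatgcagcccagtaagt
In Slc1a4 the match overlapped the start and in Trib3 it followed it. A match is a description of letters and not a measured binding site. The 9 genes with a match did not move as 1 block: between GFE and GFW, 7 were called higher, Atf3 was called lower and Nupr1 was not called, while of the 16 members with an entry and no match 13 were called higher and 2 lower. Of all genes tested, 35.1% were called higher and 31.9% lower in that comparison. The antioxidant response element, searched as TGACNNNGC on both strands, was in 5 of the 25 promoters (20.0%: Asns, Phgdh, Psph, Sesn2 and Slc38a2) and in 14.0% of all genes.

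As a check of the series, Nos2, the iNOS gene, read 8.84 to 8.92 on the arrays labelled knockout and 8.09 to 8.43 on the GFW arrays, so its level does not bear out the label; the labels do not give the deleted part of the gene, and the probe set may lie outside it. The gate genes also differed within 1 label. Cd34 had a mean log2 level of 11.28 in GFE, 7.19 in GFW and 5.92 in RB, and Ly6g, whose protein the sort selects against, 12.19 in GFW, 12.08 in GFK, 6.28 in RB and 4.22 in GFE. Itgam, the CD11b gene, had a mean of 11.67 in GFW, 11.38 in RB and 10.32 in MDSC but 7.94 in GFE, and Ly6c2 one of 12.69 in MDSC. GFW and RB are therefore kept apart throughout.

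GFE held the highest mean of the 5 groups for 25 of the 32 members. In 22 members (68.8%) all 3 GFE arrays lay above the other 12 arrays, which was so for 14.5% of all genes tested. The 22 include Slc7a3 and Cth, for which this is partly built in, as they passed the filter only through the GFE arrays. Since the members were chosen with earlier results of these data known, their shares here and below are a description and not a test. RB held the lowest mean for 15 members, and in 10 of them (31.2%, against 5.09% of all genes) its 3 arrays lay below the other 12: Asns, Atf4, Atf5, Ddit3, Chac1, Sesn2, Slc7a11, Slc7a5, Vldlr and Nars. For Slc7a11 this holds on the brighter probe set only, since on its other probe set the RB and GFW arrays overlapped. MDSC held the highest mean for 0 members, so 0 had all 3 MDSC arrays above the rest (8.84% of all genes), and in Nupr1 and Eif4ebp1 its arrays lay below the rest (5.49%). Atf3 and Ddit4 had the RB arrays above the rest (7.04%), Sesn2 and Nupr1 the GFK arrays (2.31%), while Slc3a2 and Wars had the GFW arrays below the rest (1.64%) and Atf3 the GFE arrays (8.66%). Averaged over the members, an array read 9.07 to 9.16 in GFE, 8.25 to 8.27 in MDSC, 7.72 to 7.82 in GFK, 7.55 to 7.65 in GFW and 7.51 to 7.63 in RB.

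**Figure D1:**
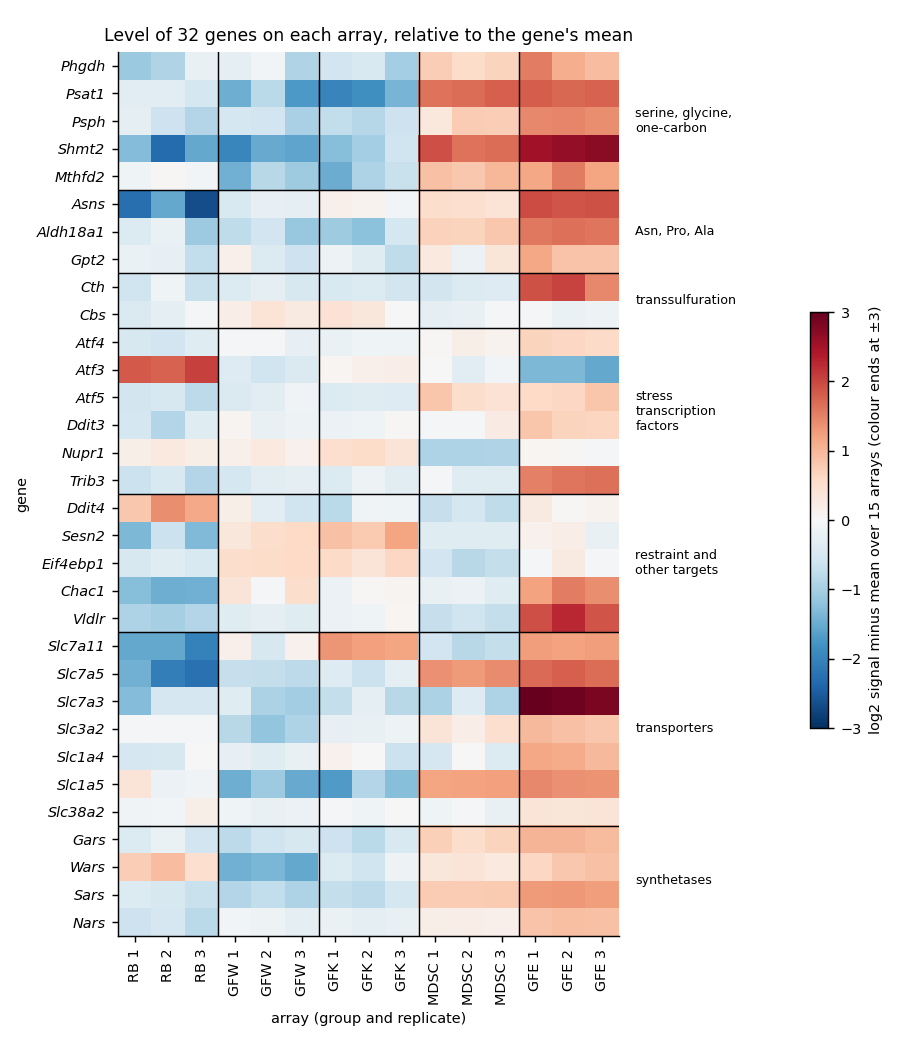
Log2 level of each member (rows, grouped by role) on each of the 15 arrays (columns, grouped by sample group), shown as the difference from the gene's mean over all arrays. The GFE columns are high for most rows, 22 of 32 members having all 3 GFE arrays above the other 12, while Atf3 is low there and high in RB. The 22 include Slc7a3 and Cth, which passed the filter only through GFE.

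Serine, glycine and one-carbon synthesis holds the member with the widest range of group means, and its 5 genes were all called higher in GFE than in GFW, in MDSC than in GFW and in MDSC than in RB (35.1%, 32.3% and 27.4% of all genes). Shmt2, the mitochondrial enzyme that splits serine into glycine and a one-carbon unit, read 11.00, 11.10 and 11.17 in GFE and 10.39, 10.10 and 10.14 in MDSC. It read 7.18, 7.45 and 7.87 in GFK, 6.50, 6.96 and 6.87 in GFW and 7.18, 6.16 and 6.94 in RB. All arrays from culture lay above all arrays from mice, and Shmt2 was 19.8-fold higher in GFE than in GFW, with a log2 difference of 4.31 ± 0.22 (SE; adjusted p = 1.2e-10), the largest among the members. Psat1, the aminotransferase of serine synthesis, read 9.29, 9.19 and 9.25 in GFE and 9.11, 9.16 and 9.26 in MDSC. Its levels were 7.14, 7.13 and 6.94 in RB, 6.01, 6.66 and 5.75 in GFW and 5.50, 5.64 and 6.07 in GFK. The cultured groups overlapped each other and stood clear of the rest, and RB stood above GFW and GFK. Psat1 rose by 3.11 ± 0.19 in GFE over GFW and by 2.11 ± 0.19 in MDSC over RB.

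Mthfd2, the mitochondrial folate enzyme that carries the one-carbon unit on, read 8.30, 8.70 and 8.32 in GFE, 8.01, 7.94 and 8.13 in MDSC and 6.99, 7.15 and 7.04 in RB. The GFK arrays gave 5.64, 6.21 and 6.45 and the GFW arrays 5.68, 6.31 and 6.06. The order was culture, then RB, then GFW and GFK, and Mthfd2 was 2.42 ± 0.19 higher in GFE than in GFW (adjusted p = 1.57e-08). Phgdh, the first enzyme of serine synthesis, read 8.84, 8.40 and 8.22 in GFE and 8.03, 7.85 and 7.96 in MDSC. It read 7.03, 7.22 and 6.40 in GFW, 6.73, 6.84 and 6.27 in GFK and 6.19, 6.39 and 7.08 in RB, so that the mouse-derived groups were low and overlapped. Phgdh was 1.60 ± 0.24 higher in GFE than in GFW and 1.39 ± 0.24 higher in MDSC than in RB. Psph, which takes the last step to serine, was 2.13 ± 0.16 higher in GFE than in GFW and 1.30 ± 0.16 higher in MDSC than in GFW.

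Asns, which makes asparagine from aspartate and is a textbook ATF4 target, was highest in GFE and lowest in RB. It read 10.46, 10.37 and 10.41 in GFE, 9.01, 8.99 and 8.91 in MDSC and 8.65, 8.61 and 8.42 in GFK. The GFW arrays gave 8.04, 8.25 and 8.23 and the RB arrays 6.24, 6.96 and 5.84, the lowest of all and the widest apart. Asns rose by 2.24 ± 0.19 in GFE over GFW, by 2.62 ± 0.19 in MDSC over RB and by 0.80 ± 0.19 in MDSC over GFW (adjusted p = 0.00226). Aldh18a1, which starts proline synthesis from glutamate, read 8.91, 8.97 and 8.93 in GFE and 8.01, 8.01 and 8.13 in MDSC. Its levels were 6.91, 7.12 and 6.23 in RB, 6.58, 6.75 and 6.20 in GFW and 6.26, 6.11 and 6.79 in GFK, overlapping among the groups from mice. Aldh18a1 was 2.43 ± 0.21 higher in GFE than in GFW. Gpt2, the mitochondrial alanine aminotransferase, was 1.25 ± 0.21 higher in GFE than in GFW. In MDSC against GFW it differed by 0.46 ± 0.21, which was not called (adjusted p = 0.0751). It was called with each array centred on its median (adjusted p = 0.0282), without MDSC replicate 2 (0.0297) and without GFW replicate 1 (0.68, adjusted p = 0.013).

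The 2 enzymes of transsulfuration, the route from homocysteine to cysteine, moved apart. Cth, which releases cysteine in the last step, read 6.48, 6.59 and 6.02 in GFE. It read 4.02, 4.16 and 4.18 in MDSC, 3.96, 4.44 and 3.90 in RB, 4.10, 4.16 and 4.03 in GFK and 4.16, 4.30 and 4.08 in GFW, levels at which dim probe sets lie. Probe sets with a group mean below the 40th percentile give a lower bound and not a fold: Cth was at least 4.53-fold higher in GFE than in GFW (adjusted p = 5.42e-09). Cth was tested only because of its GFE arrays, so this difference is partly built in. Cbs, which takes the step before, fell by 0.43 ± 0.13 in GFE against GFW (adjusted p = 0.00876), a call that ended when each array was centred on its median (adjusted p = 0.0544).

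All 7 amino acid transporters of the set were called higher in GFE than in GFW, 6 of them by at least 2-fold (35.1% and 18.3% of all genes). Both counts include Slc7a3, which passed the filter only through GFE. Slc7a3, a carrier of arginine and other cationic amino acids, read 8.11, 8.05 and 7.96 in GFE. It read 4.19, 4.75 and 4.22 in MDSC, 3.84, 4.63 and 4.63 in RB, 4.43, 4.84 and 4.31 in GFK and 4.78, 4.18 and 4.08 in GFW, all of them dim. Slc7a3 was at least 12.9-fold higher in GFE than in GFW and at least 12.6-fold higher in GFE than in MDSC. It was dim in the cells grown with IL-13 as in the cells from mice. Slc7a5, the large neutral amino acid carrier that imports leucine, read 10.98, 11.09 and 10.97 in GFE and 10.65, 10.57 and 10.70 in MDSC. The GFK arrays gave 8.91, 8.65 and 8.98, the GFW arrays 8.60, 8.57 and 8.51 and the RB arrays 7.84, 7.21 and 7.05. Slc7a5 was 3.28 ± 0.16 higher in MDSC than in RB and 2.45 ± 0.16 higher in GFE than in GFW, and the 3 RB arrays lay below all others. Slc3a2, the heavy chain that brings Slc7a5 and Slc7a11 to the membrane, was 1.87 ± 0.11 higher in GFE than in GFW, and its 3 GFW arrays lay below the other 12.

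Slc1a5, a carrier of glutamine and other neutral amino acids, read 9.91, 9.83 and 9.81 in GFE, 9.65, 9.68 and 9.70 in MDSC and 8.85, 8.29 and 8.37 in RB. It was lower in GFK (6.77, 7.60 and 7.20) and in GFW (7.01, 7.37 and 6.95). GFE and MDSC differed by -0.17 ± 0.18, which was not called, and the second probe set of the gene gave the opposite sign there (0.16). Slc1a5 was 2.74 ± 0.18 higher in GFE than in GFW and 1.40 ± 0.18 higher in RB than in GFW. Slc1a4, a carrier of alanine and serine, was at least 2.57-fold higher in GFE than in GFW. Slc38a2, the amino acid starvation-induced glutamine carrier, rose least of the transporters, by 0.54 ± 0.10.

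Slc7a11, the cystine and glutamate exchanger that feeds glutathione synthesis, has 2 probe sets that did not give the same picture. The brighter read 10.63, 10.59 and 10.65 in GFE, 10.71, 10.61 and 10.56 in GFK and 9.55, 8.91 and 9.50 in GFW. It read 8.82, 8.55 and 8.66 in MDSC and 7.84, 7.85 and 7.37 in RB, so the GFE and GFK arrays lay together at the top and the RB arrays at the bottom. The other probe set read 10.05, 10.20 and 10.17 in GFE, 9.47, 9.77 and 9.58 in GFK and 7.60, 6.89 and 7.43 in GFW. It read 8.73, 8.59 and 8.77 in MDSC and 5.97, 6.93 and 6.99 in RB, so that MDSC lay above GFW there and below it on the brighter one. The log2 differences on the brighter and the other probe set were 1.30 and 2.83 for GFE over GFW, 1.31 and 2.30 for GFK over GFW, and 0.99 and 2.07 for MDSC over RB. For RB against GFW they were -1.64 and -0.68, and on the other probe set the RB and GFW arrays overlapped. For MDSC against GFW they were -0.64 and 1.39, and with the mean of both probe sets the difference was 0.37 (adjusted p = 0.0491), so no direction is given for that pair of groups, although the brighter probe set counts among the members called lower there.

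Of the stress transcription factors and their partners, Atf4 itself spanned 1.09 log2 units between its highest and lowest group mean. It read 12.49, 12.42 and 12.38 in GFE, 11.85, 11.98 and 11.91 in MDSC and 11.76, 11.77 and 11.56 in GFW. The GFK arrays gave 11.61, 11.67 and 11.69 and the RB arrays 11.33, 11.24 and 11.45. The GFE arrays lay above and the RB arrays below all others, and the rise in GFE over GFW was 0.73 ± 0.10, or 1.66-fold (adjusted p = 6.68e-06). MDSC against GFW gave 0.22 ± 0.10, which was not called (adjusted p = 0.0634; 0.0105 with each array centred on its median). Trib3, a pseudokinase that ATF4 and CHOP induce and that restrains them, read 7.99, 8.07 and 8.12 in GFE and 6.42, 6.12 and 6.12 in MDSC. The GFK arrays gave 6.08, 6.32 and 6.16, the GFW arrays 5.95, 6.17 and 6.19 and the RB arrays 5.84, 6.02 and 5.61. GFE stood apart, 1.96 ± 0.13 above GFW, while the other 4 groups lay close together. Ddit3, which encodes CHOP, was 0.81 ± 0.14 higher in GFE than in GFW, and Atf5, a close relative of Atf4, 0.98 ± 0.13 higher.

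Atf3 ran the other way. This stress-induced repressor, which is also an immediate early gene, read 11.25, 11.18 and 11.46 in RB, 9.47, 9.57 and 9.60 in GFK and 9.41, 9.10 and 9.33 in MDSC. It read 9.02, 8.81 and 8.97 in GFW and 8.06, 8.06 and 7.86 in GFE. The GFE arrays lay below and the RB arrays above all others: Atf3 fell by 0.94 ± 0.11 in GFE against GFW and by 2.01 ± 0.11 in MDSC against RB. It was the only member called lower in both of these comparisons, as were 10.9% of all genes. Nupr1, a small stress-induced chromatin protein, read 10.24, 10.29 and 10.13 in GFK, 9.91, 10.01 and 9.91 in RB and 9.88, 10.03 and 9.86 in GFW. Its levels were 9.79, 9.76 and 9.69 in GFE and 8.80, 8.81 and 8.82 in MDSC. The MDSC arrays lay below all others, and Nupr1 fell by 1.12 ± 0.09 in MDSC against GFW, whereas GFE differed from GFW by -0.18 ± 0.09, which was not called (adjusted p = 0.101).

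None of the 3 targets that restrain translation and mTORC1 was called higher in GFE or in MDSC than in GFW. Eif4ebp1, the repressor of cap-dependent translation that mTORC1 switches off, read 10.53, 10.56 and 10.61 in GFW, 10.57, 10.39 and 10.62 in GFK and 9.94, 10.28 and 9.94 in GFE. It read 9.51, 9.65 and 9.55 in RB and 9.44, 9.17 and 9.29 in MDSC. Eif4ebp1 fell by 0.52 ± 0.12 in GFE and by 1.27 ± 0.12 in MDSC, each against GFW. Sesn2, a leucine sensor that holds mTORC1 back, read 8.28, 8.19 and 8.58 in GFK, 7.75, 7.93 and 7.99 in GFW and 7.54, 7.62 and 7.18 in GFE. It read 7.05, 7.04 and 7.04 in MDSC and 6.05, 6.77 and 6.09 in RB, the lowest group. Sesn2 fell by 0.44 ± 0.17 in GFE against GFW (adjusted p = 0.0351). That call ended without GFE replicate 3 (adjusted p = 0.157), without GFW replicate 2 (0.0796), without GFW replicate 3 (0.1) and with each array centred on its median (0.159). Ddit4, the mTORC1 inhibitor known as REDD1, read 8.18, 8.77 and 8.51 in RB, 7.63, 7.42 and 7.48 in GFE and 7.55, 7.06 and 6.77 in GFW. Ddit4 was lower in GFK (6.57, 7.26 and 7.25) and in MDSC (6.67, 6.84 and 6.61). Ddit4 was 1.36 ± 0.21 higher in RB than in GFW, and GFE differed from GFW by 0.38 ± 0.21, which was not called (adjusted p = 0.117). Ddit4 was called higher there with array-median centring (adjusted p = 0.0426) and without GFW replicate 1 (0.59, adjusted p = 0.0225).

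2 further targets were highest in GFE. Chac1, which breaks down glutathione, read 8.32, 8.64 and 8.51 in GFE, 7.51, 7.07 and 7.65 in GFW and 6.95, 7.15 and 7.20 in GFK. It read 6.89, 6.94 and 6.75 in MDSC and 5.84, 5.66 and 5.69 in RB, the lowest group. Chac1 was 1.08 ± 0.14 higher in GFE than in GFW, and in MDSC it fell by 0.55 ± 0.14 against GFW and rose by 1.13 ± 0.14 against RB. Vldlr, a receptor for very low density lipoprotein, read 7.68, 8.002 and 7.63 in GFE and 5.56, 5.62 and 5.80 in GFK. It read 5.39, 5.46 and 5.39 in GFW, 5.05, 5.14 and 5.03 in MDSC and 4.82, 4.75 and 4.86 in RB, which are dim levels. Vldlr was at least 5.13-fold higher in GFE than in GFW and at least 6.48-fold higher in GFE than in MDSC.

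The 4 cytosolic aminoacyl-tRNA synthetases of the set, which load amino acids onto tRNA, were all called higher in GFE than in GFW and in MDSC than in GFW (35.1% and 32.3% of all genes). Wars, the tryptophan enzyme, which interferon is also known to induce, was high in GFE, RB and MDSC alike. It read 8.96, 9.14 and 9.21 in GFE, 9.08, 9.27 and 8.83 in RB and 8.67, 8.73 and 8.63 in MDSC. The GFK arrays gave 7.93, 7.74 and 8.18 and the GFW arrays 6.88, 6.97 and 6.79, the lowest. Wars was 2.22 ± 0.13 higher in GFE than in GFW, 2.18 ± 0.13 higher in RB than in GFW and 1.07 ± 0.13 higher in GFK than in GFW. Sars, the serine enzyme, was 2.12 ± 0.10, Gars, the glycine enzyme, 1.61 ± 0.12 and Nars, the asparagine enzyme, 1.03 ± 0.10 higher in GFE than in GFW.

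**Figure D2:**
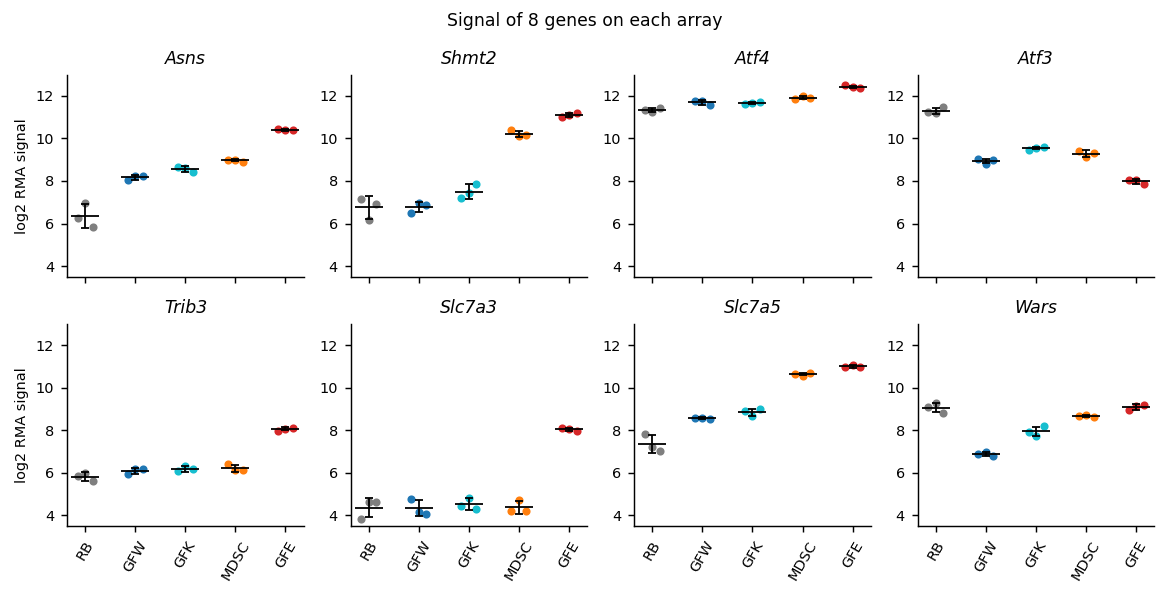
Log2 level of 8 members on each of the 15 arrays (points, by group on the horizontal axis) with the group means as horizontal lines and the SD (n = 3) as whiskers. Asns, Shmt2 and Slc7a5 are high in both cultured groups, Slc7a3 and Trib3 in GFE, Atf3 is lowest in GFE and highest in RB, and Atf4 spans about 1 log2 unit in all (group means 1.09 apart).

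As a set, 26 members were called higher and 4 lower in GFE than in GFW, against 35.1% and 31.9% of all genes tested. At least 2-fold higher were 22 of 32, against 18.3% of all genes, and 0 members were called at least 2-fold lower, against 8.93%. Because members and lists were chosen with earlier results of these data known, such shares are a description and not a test. The counts of higher members include Slc7a3 and Cth, which passed the filter only through GFE. The median difference was 1.60 over the members and -0.06 over all genes. Centring each array on its median shifted the median of all genes by 0.14 upward here and turned 5198 genes called higher and 4733 lower into 5783 and 3286. The lists for other cells moved as well. All 7 proliferation genes tested were called higher, with an array mean of 9.94 to 9.99 in GFE against 7.71 to 8.02 in GFW. Of 8 progenitor markers, 7 were called higher and 1 lower (9.61 to 9.76 against 7.29 to 7.45), and all 8 neutrophil markers were called lower (5.54 to 5.70 against 11.23 to 11.29), Ly6g lying at 4.22 in GFE. Of 9 immediate early genes, 8 were called lower (6.97 to 7.11 against 9.81 to 9.87). The part of these shifts in the members' differences was not tested.

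Other genes of the pathway were counted in the same comparison. Of 14 other cytosolic aminoacyl-tRNA synthetases tested, 14 were called higher in GFE than in GFW, 13 of them by at least 2-fold, led by Iars for isoleucine (3.90), Eprs for glutamate and proline (3.83) and Farsb for phenylalanine (3.10). Of 9 other one-carbon and glycine cleavage enzymes, 6 were called higher and 0 lower, led by Mthfd1 (2.73), its mitochondrial counterpart Mthfd1l (2.37) and the purine enzyme Gart (2.11). Among 11 other amino acid transporters, 6 were called higher and 1 lower, led by the arginine carrier Slc7a1 (2.90), then Slc7a6 (2.17) and Slc38a1 (1.70). Of 12 eIF2alpha kinases, phosphatases and eIF2B subunits, 6 were called higher and 4 lower, against 35.1% and 31.9% of all genes. At least 2-fold higher were 3 and as much lower 3, against 18.3% and 8.93% of all genes. Ppp1r15a, the stress-induced subunit of the eIF2alpha phosphatase, had a difference of -2.29, Eif2ak3, the kinase known as PERK, of -1.64, and the eIF2B subunit Eif2b5 of 1.25. Of 11 genes of the ATF6 and XBP1 branches, which answer unfolded protein in the endoplasmic reticulum, 8 were called higher and 3 lower, the largest differences being those of the chaperone genes Sdf2l1 (1.47), Hsp90b1 (1.28) and Calr (1.13). Xbp1 itself was the 1 gene at least 2-fold lower (mean 9.09 in GFE, 10.14 in GFW), while 3 were as much higher (8.93% and 18.3% of all genes). Of 8 glutathione and NRF2 targets, 6 were called higher and 2 lower, led by Nqo1 (2.53), Gclc (2.22) and, in the lower direction, Gsr (-2.01). Of 10 genes of amino acid sensing by mTORC1, 4 were called higher and 3 lower, near the shares of all genes, led by the sestrins Sesn1 (2.03) and Sesn3 (1.31). Both rose while Sesn2, the family member among the stress targets, fell on the call given above.

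**Figure D3:**
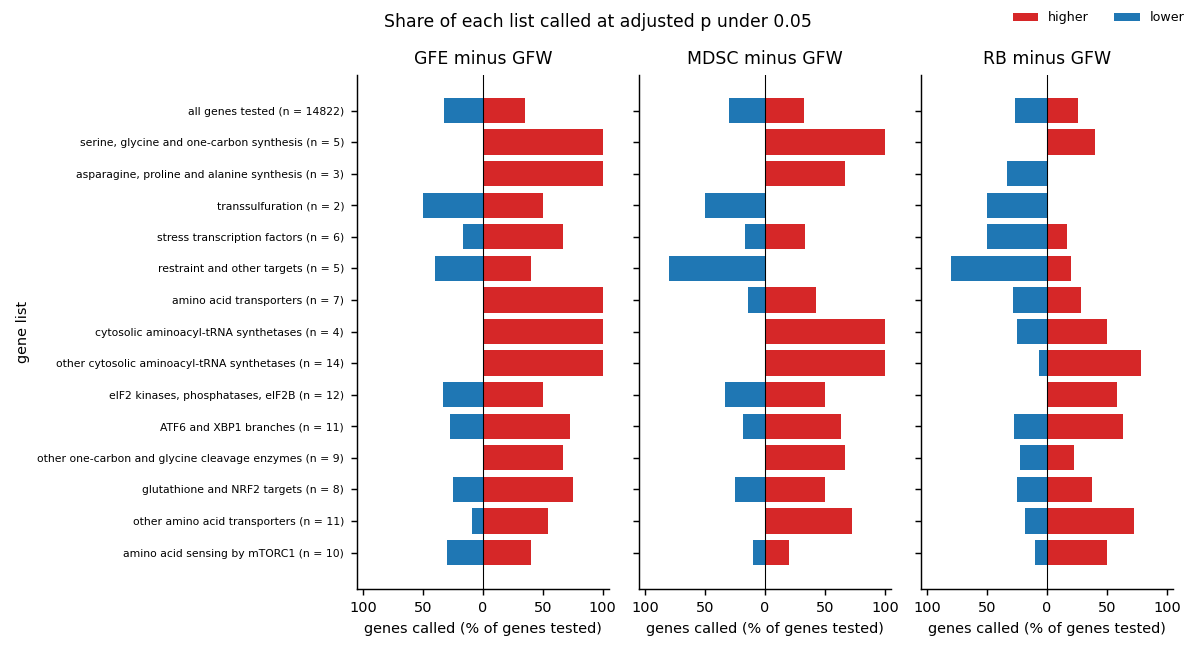
Share of each gene list (in percent of the genes tested) called higher and called lower, for GFE minus GFW, MDSC minus GFW and RB minus GFW. The other aminoacyl-tRNA synthetases are all called higher in GFE and in MDSC, while the list of eIF2alpha kinases, phosphatases and eIF2B holds calls in both directions (6 higher and 4 lower in GFE).

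The suppressor cells were compared with each set of mobilised wild-type cells. The first part of the titles differs between MDSC and each of RB, GFW and GFE. In the comparisons of MDSC, any difference in handling and the cells therefore cannot be told apart. Against RB, 21 members were called higher and 4 lower, with backgrounds of 27.4% and 20.7% of all genes, and the median difference was 0.69 over the members and 0.04 over all genes. At least 2-fold higher were 12 members and 3 were as much lower, against 9.86% and 6.58% of all genes. The largest were Shmt2 (3.46 ± 0.22), Slc7a5 (3.28 ± 0.16) and Asns (2.62 ± 0.19), and the lower ones were Atf3, Ddit4 (-1.78 ± 0.21), Nupr1 (-1.14 ± 0.09) and Wars (-0.38 ± 0.13). The stress markers Ddit3 (0.64 ± 0.14), Trib3 (0.40 ± 0.13), Chac1 and Sesn2 (0.74 ± 0.17) were all called higher over RB. The Wars call ended without MDSC replicate 1 (0.0602), MDSC replicate 3 (0.0718), RB replicate 1 (0.0564) and RB replicate 2 (0.115) and with array-median centring (0.0744). The Gpt2 call (adjusted p = 0.041) ended without MDSC replicate 1 (0.121), MDSC replicate 3 (0.146) and RB replicate 3 (0.178). That of Trib3 (adjusted p = 0.0168) ended without MDSC replicate 1 (0.0935), without RB replicate 3 (0.0836) and with only the 6 arrays compared (0.0521).

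Against GFW, 16 members were called higher in MDSC and 7 lower, with backgrounds of 32.3% and 30% of all genes, and the median difference was 0.34 over the members and -0.08 over all genes. At least 2-fold higher were 12 members and 2 were as much lower, against 16.3% and 7.58% of all genes. All 5 serine and one-carbon genes were called higher by at least 2-fold, led by Shmt2 (3.44 ± 0.22) and Psat1 (3.04 ± 0.19), as were the carriers Slc1a5 (2.57 ± 0.18) and Slc7a5 (2.08 ± 0.16). Of the stress markers, Ddit3 (0.14 ± 0.14, adjusted p = 0.373) and Trib3 (0.12 ± 0.13, adjusted p = 0.43) were not called, and Chac1 and Sesn2 (-0.85 ± 0.17) fell, while Atf5 rose (0.89 ± 0.13). Atf3 was called higher (0.35 ± 0.11), a call that ended without MDSC replicate 1 (0.0721) and GFW replicate 2 (0.0654), and the lower call of Vldlr ended with array-median centring (adjusted p = 0.156). That centring shifted the median of all genes by 0.12 upward and turned 4781 genes called higher and 4444 lower into 5306 and 3094. Among the other genes of the pathway, 14 of 14 synthetases were called higher, and the arginine carrier Slc7a2 was at least 8.17-fold higher than in GFW. All 7 proliferation genes were called higher in MDSC against either mouse-derived group, with an array mean of 10.18 to 10.34 in MDSC, and all 9 immediate early genes were called lower (6.81 to 6.82). Neutrophil markers averaged 8.88 to 8.93 in MDSC, 11.23 to 11.29 in GFW and 8.74 to 8.85 in RB. Of these 8 markers, 2 were called higher and 5 lower against GFW, and 5 higher and 3 lower against RB. Monocyte markers averaged 7.98 to 8.09 in MDSC, 7.90 to 7.94 in GFW and 11.33 to 11.48 in RB. Of these 8, 3 were called higher and 2 lower against GFW, and 0 higher and 7 lower against RB. The part of these lists in the members' differences was not tested.

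The comparison of GFE with GFW and that of MDSC with RB have no array in common. The 20 members called higher in both make up 76.9% of the 26 in the first and 95.2% of the 21 in the second. Over all genes the 2658 shared made up 51.1% and 65.5%, and 17.9% of all genes tested were called higher in both. The exception in MDSC was Sesn2, called higher over RB while lower in GFE than in GFW, and Slc7a3, Slc1a4, Slc38a2, Cth, Vldlr and Wars were called higher for GFE without being called higher in MDSC over RB.

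**Figure D4:**
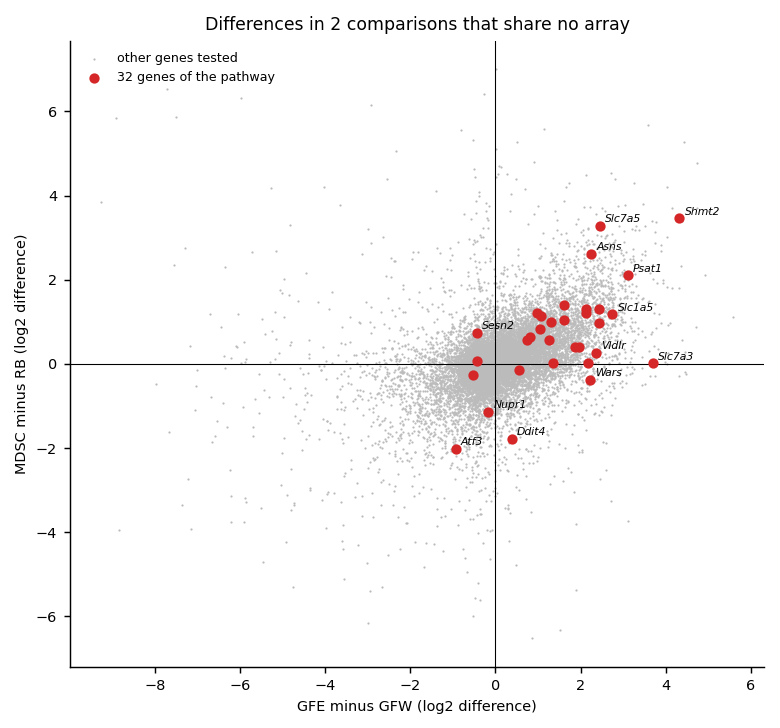
Log2 difference GFE minus GFW (horizontal axis) against MDSC minus RB (vertical axis) for all genes tested (grey) and the members (coloured), 2 comparisons with no array in common. The 20 members called higher in both lie at the upper right, and Atf3 lies in the lower left.

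The cultured groups, whose titles also differ in the first part, were set against each other. In MDSC against GFE, 1 member was called higher and 23 lower, with backgrounds of 16.6% and 18.9% of all genes, and 1 and 8 passed 2-fold, against 5.29% and 5.34%. The counts of lower members include Slc7a3 and Cth, which passed the filter only through GFE. The median difference was -0.68 over the members and -0.00 over all genes. Atf3 was the higher one (1.29 ± 0.11). Lower beside Slc7a3, Vldlr and Cth were Slc7a11 (-1.95 ± 0.16), Trib3 (-1.84 ± 0.13) and Chac1 (-1.63 ± 0.14), with Asns at -1.44 ± 0.19. Psat1 (-0.07 ± 0.19), Phgdh (-0.54 ± 0.24) and Mthfd2 (-0.41 ± 0.19) were not called, which does not show that their levels are the same, and with only the 6 arrays compared Phgdh and Mthfd2 were called lower (adjusted p = 0.0171 and 0.0249). Proliferation genes had a median difference of 0.08, with 3 of 7 called higher and 1 lower. Progenitor markers moved with the members, 7 of 8 being called lower (7.08 to 7.20 in MDSC against 9.61 to 9.76 in GFE), and 7 of 8 neutrophil markers were called higher (8.88 to 8.93 against 5.54 to 5.70), and their part in these differences was not tested. The call of Gars (adjusted p = 0.0358) ended without any 1 of the 6 arrays compared, MDSC replicate 1 (0.0518), MDSC replicate 2 (0.13), MDSC replicate 3 (0.0646), GFE replicate 1 (0.0909), GFE replicate 2 (0.0945) and GFE replicate 3 (0.0586). That of Wars ended without MDSC replicate 3 (0.058), GFE replicate 2 (0.057) and GFE replicate 3 (0.0743), and that of Gpt2 without MDSC replicate 2 (0.0508).

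**Figure D5:**
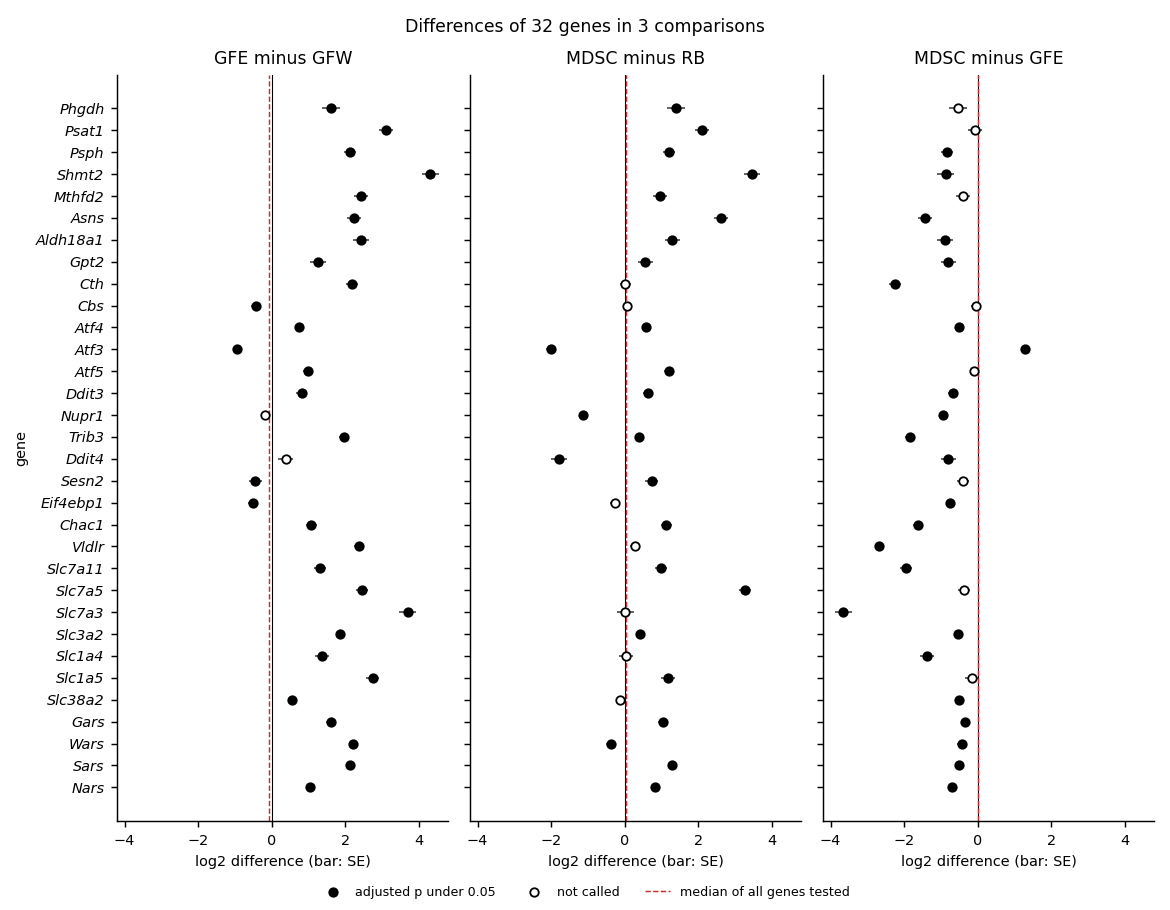
Log2 difference of each member (rows) in GFE minus GFW, MDSC minus RB and MDSC minus GFE, with bars of 1 SE filled points where limma called the gene and a dashed line at the median of all genes tested. Shmt2 has the largest difference in the first (4.31) and second (3.46) comparison, and Atf3 is the member called higher in the third.

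RB and GFW carry the same description, yet 8 members were called higher and 12 lower in RB, with backgrounds of 25.8% and 26.5% of all genes. The median difference was -0.07 over the members and -0.06 over all genes. At least 2-fold higher were 5 members and 5 were as much lower, against 8.47% and 4.99% of all genes. Higher were Atf3 (2.36 ± 0.11), Wars, Slc1a5, Ddit4, Mthfd2 (1.04 ± 0.19), Psat1, Slc3a2 and Sars (0.32 ± 0.10). Lower by at least 2-fold were Asns (-1.82 ± 0.19), Chac1 (-1.68 ± 0.14), Slc7a11, Sesn2 (-1.59 ± 0.17) and Slc7a5 (-1.19 ± 0.16). For Slc7a11 this holds on the brighter probe set (-1.64), while the other gave -0.68, which is less than 2-fold. So within 1 label Asns, Slc7a11 and Slc7a5 were lower. Slc3a2, the heavy chain of Slc7a11 and Slc7a5, was higher (0.93 ± 0.11), as were Slc1a5, Wars and Atf3. The call of Atf5 (adjusted p = 0.0486) ended without RB replicate 1 (0.0643), RB replicate 3 (0.178), GFW replicate 2 (0.0694) and GFW replicate 3 (0.192) and that of Sars without RB replicate 1 (0.06) and GFW replicate 3 (0.0597). With only the 6 arrays compared, the calls of Atf5 (0.105) and Sars (0.0742) ended too, and that of Atf4 (adjusted p = 0.00623) ended as well (0.0501). The Atf5 call also ended with array-median centring (0.115) and without the filter on dim genes (0.062). All 8 monocyte markers were called higher in RB (11.33 to 11.48 against 7.90 to 7.94) and 6 of 8 neutrophil markers lower (8.74 to 8.85 against 11.23 to 11.29), and their part in these differences was not tested. The first part of the titles also differs between RB and GFW, so that any difference in handling and the cells cannot be told apart.

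Between GFK and GFW, which share the first part of the titles, few members moved. 4 were called higher and 0 lower, with backgrounds of 1.3% and 0.317% of all genes; at an unadjusted p under 0.05, 8 members were higher and 2 lower. At least 2-fold higher were 2 members and lower 0, against 0.358% and 0.0135% of all genes. Slc7a11 was 1.31 ± 0.16 higher on the arrays labelled knockout (adjusted p = 0.000469), and its partner Slc3a2 0.77 ± 0.11 (adjusted p = 0.00136), both chains of the cystine exchanger. Wars was 1.07 ± 0.13 higher (adjusted p = 0.000462) and Atf3 0.62 ± 0.11 (adjusted p = 0.0105). The Atf3 call ended without GFW replicate 2 (0.0526) and with only the 6 arrays compared (0.0746). Of the 8 glutathione and NRF2 targets, Txnrd1, a thioredoxin reductase, rose by 0.81 and Hmox1, haem oxygenase, by 0.54, and 0 were called lower. Atf4 differed by -0.04 ± 0.10, Asns by 0.38 ± 0.19 and Shmt2 by 0.72 ± 0.22, none of which was called (adjusted p = 0.927, 0.465 and 0.149). B and plasma cell markers were also higher in GFK, 4 of 7 being called (7.79 to 7.98 against 6.98 to 7.30), as were 3 of 8 macrophage markers (8.85 to 9.12 against 8.31 to 8.41), and their part was not tested.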

How the data were processed

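RNA from 15 samples, 3 in each of 5 groups, was labelled as biotinylated cRNA from 6 ug of total RNA and measured on 15 single-colour arrays, per the labels. The deposited values are log2 and were made by the authors with RMA in the oligo package, per the submitters' processing notes, with versions and genome build not given in the sources used here. The number of arrays limits the precision. Array medians ran from 5.52 to 5.72, and 0 pairs of arrays were identical.

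Of 41345 probe sets, 23521 name 1 gene symbol, 1814 several and 16010 none in the platform annotation, and only the first kind was used. Of the probe sets used, 23328 were found in RefSeq's gene list (GRCm38.p6) by their gene identifiers, and 0 symbols changed. A gene was read from its probe set with the highest mean over all arrays. Genes above the 40th percentile of these probe sets (5.34 to 5.58) on at least 3 arrays were tested, 14822 of 22180.

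A mean per group was fitted over all 15 arrays with lmFit and eBayes of limma 3.58.1 (R 4.3.3; 10 residual degrees of freedom), 2-sided, with Benjamini-Hochberg adjustment over all genes tested; the steps were tested on simulated data. Errors of differences are SE with n = 3 per group. The 6 comparisons share arrays and are not independent. Every member may be named; values on each array are given for the 6 largest called differences of at least 2-fold in each direction and comparison, and for Atf4 and Slc7a11. Of the other pathway lists the 3 largest called differences are named. Members and lists were chosen with earlier results of these data known. Alternatives were array-median centring, no filter, the mean of a gene's probe sets, only the 6 arrays compared, a replicate block and leaving out each array. Monocytes and progenitors of untreated mice, which the design text mentions, were not analysed here.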

Additional observations from a re-analysis of the deposited data

How the results depend on the processing

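Of the members called, 28 of 30 for GFE minus GFW, 3 of 4 for GFK minus GFW, 17 of 20 for RB minus GFW, 22 of 25 for MDSC minus RB, 20 of 23 for MDSC minus GFW and 21 of 24 for MDSC minus GFE kept their direction and call in all 11 alternatives. The 1 reversal was Slc7a11 in MDSC minus GFW, at 0.37 with the mean of its probe sets. With array-median centring, 2 members rather than 4 were called lower in GFE minus GFW. Over all genes, GFK minus GFW was the least stable comparison: 192 genes were called higher, 72 with only the 6 arrays compared and 102 to 150 when 1 array was left out, and 47 were called lower, 29 with centring, 30 without the filter, 2 with only the 6 arrays compared and 27 to 42 when 1 array was left out. Same-numbered replicates did not deviate together (correlations of -0.09 to 0.04). This gives no sign of pairing by number but cannot exclude a common source of same-numbered samples. A replicate block gave 26 members higher in GFE minus GFW as before, and ended the calls of Gars in MDSC minus GFE (adjusted p = 0.0587), Gpt2 in MDSC minus RB (0.05) and Atf5 in RB minus GFW (0.0603). Probe sets with a group mean under the 40th percentile give only a lower bound.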
